A study of Homo sapiens with 4 samples.

Results

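The DNA replication machinery genes were followed as a list of 52 symbols that encode the proteins that choose, license and fire replication origins, unwind DNA, copy it, join the copied pieces, protect the fork and put histones behind it. Members were the transcripts whose gene symbol was on that list, and 51 of the 52 were found among the 18398 RefSeq transcripts with a value, while PRIM2, the large primase subunit, was not analysed here. They were measured by RNA sequencing in Huh1 and Huh7, established lines from human liver cancer (hepatocellular carcinoma), after transfection of each line with a negative control siRNA (NCsiRNA) or with an siRNA against CDCA8 (CDCA8siRNA). CDCA8 encodes borealin, a subunit of the chromosomal passenger complex that works in mitosis. Per the study's methods, the siRNA dose was 15 nM and the RNA was taken at 48 h. There were 4 libraries, 1 for each line and siRNA, so the spread between separately transfected cultures could not be measured, and all knockdown cultures received the same CDCA8siRNA. The values were taken as RPKM (reads counted per kilobase of transcript and scaled to the library's mapped reads), since no unit is stated with them.

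Replication begins when the origin recognition complex (ORC) marks origins and CDC6 and CDT1 load the MCM2 to MCM7 helicase onto them in G1. In S phase the kinases and loading factors, CDC45 and the GINS complex turn the loaded ring into the moving helicase, and DNA polymerases alpha, delta and epsilon copy the strands with the sliding clamp PCNA. Many of these genes are known targets of E2F transcription factors and are expressed most at the G1/S transition. The hepatoma lines divide in culture, and replication genes are expressed in dividing cells.

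CDCA8 itself stood at 24.1 RPKM in Huh1 with NCsiRNA and 5.86 with CDCA8siRNA, and at 51.5 and 7.36 in Huh7, which left 24.3% and 14.3% of the control level. The 4 libraries held 12197606 to 13384836 mapped reads, as read from the value of 1 read in each. All 10 hepatocyte markers had values above 0 in every library and summed to 5340 to 6287 RPKM in Huh1 and 2485 to 3472 in Huh7. Of 11 markers of blood, endothelial and mesenchymal cells, CDH5 was at 0 in all 4 libraries, and the sum was 18.8 to 24.6 RPKM in Huh1, mostly CD68, and 124 to 158 in Huh7, mostly the collagen gene COL1A1.

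All 51 members passed the minimum of 1 RPKM in every library, with values between 5.34 RPKM (GINS3 in Huh7 with CDCA8siRNA) and 194 RPKM (PCNA in Huh7 with NCsiRNA). The median member stood at 23.5 RPKM in Huh1 with NCsiRNA and 24.7 with CDCA8siRNA, and at 25.2 and 22.1 in Huh7. For the 48 members with a transcript length, 149 to 6418 reads lay behind each value. From these reads a 95% interval was made for each log2 fold change of (RPKM + 1), called the counting interval here, which covers counting error only. A member is called lower or higher beyond it where the interval leaves out 0. The interval is narrower for genes with more reads. Genes that passed the minimum in both lines had lower medians than the members, at 12.6 RPKM in Huh1 and 13.7 in Huh7 with NCsiRNA. Shares of members and of all genes beyond the interval are thus not compared at equal depth. RPA1, RFC5 and TIMELESS had no transcript length and have no such interval.

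**Figure D1:**
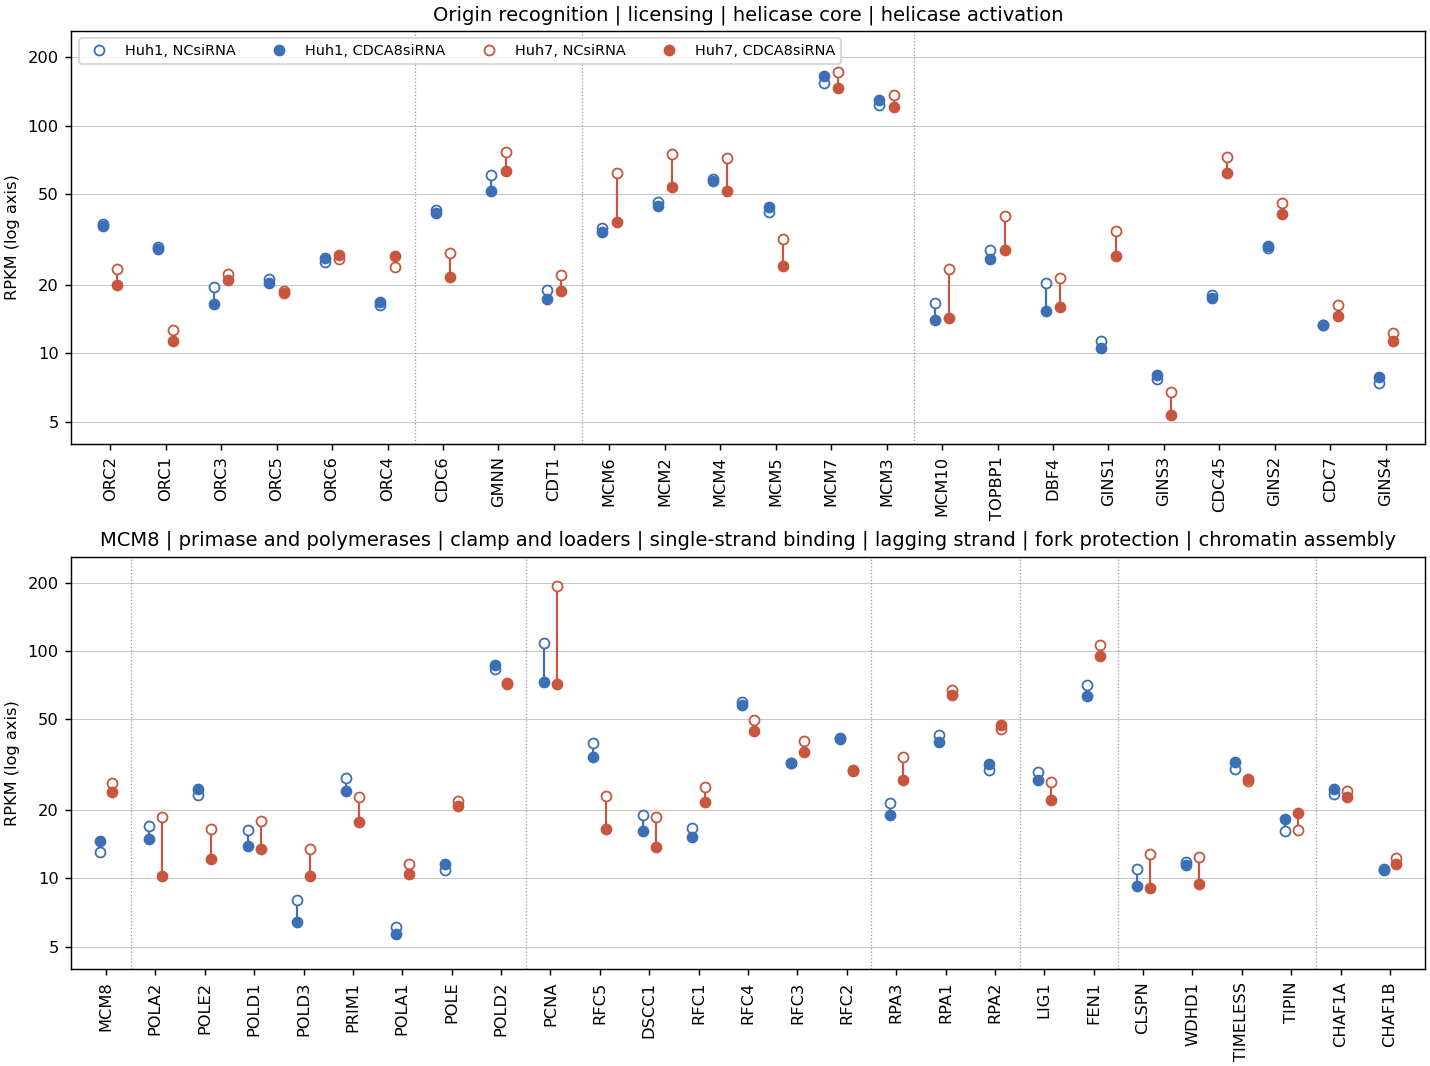
RPKM on a log axis of the 51 members in each of the 4 libraries, grouped by role from origin recognition to chromatin assembly, with open points for NCsiRNA and filled points for CDCA8siRNA and a line joining the pair of each cell line. The longest drop is that of PCNA in Huh7, from 194 to 71.9 RPKM, while most Huh1 pairs lie close together.

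In Huh7, 45 of the 51 members (88.2%) were lower with CDCA8siRNA than with NCsiRNA, beside 45.5% of all 11565 genes that passed the minimum. The members' median log2 fold change was -0.23, against 0.033 for all genes. For 34 of 48 members (70.8%) the level was lower beyond the counting interval, beside 23.8% of all genes, and for 2 (ORC4 and TIPIN) it was higher, beside 30.3%. These differences were small for most members: PCNA alone was at least 2-fold lower (1 of 51, beside 0.7% of all genes), and 0 members were at least 2-fold higher (0.873%).

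In Huh1 the same comparison gave smaller differences. The log2 fold changes of all genes also spread less in Huh1 (standard deviation 0.261) than in Huh7 (0.347). In Huh1, 32 of 51 members (62.7%) were lower, beside 44.9% of 10940 genes. The members' median log2 fold change was -0.045, against 0.023 for all genes. Beyond the counting interval, 16 of 48 (33.3%) were lower, beside 18.3% of all genes, and 3 (MCM3, MCM7 and MCM8) were higher, beside 26.1%. In Huh1 0 members were 2-fold lower (0.174% of all genes) or 2-fold higher (0.32%). In bulk RNA, fewer cells in S phase and less of these RNAs per cell cannot be told apart.

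Across the lines, 32 members (62.7%) were lower in both, beside 30.5% of 10357 genes, and 6 (11.8%) were higher in both, beside 39%. These 6 were ORC4, ORC6, RFC2, RPA2, TIMELESS and TIPIN, with RFC2 turning lower in Huh1 by a log2 of -0.0018 when the libraries were quantile normalized. The other 13 (25.5%) were higher in Huh1 and lower in Huh7, beside 15.8% of all genes, and 0 showed the opposite, beside 14.8%. The log2 fold change was lower in Huh7 than in Huh1 beyond the counting interval of the difference for 19 of 48 members (39.6%), beside 18.2% of all genes, and higher for 0, beside 15.5%. The spread between cultures is not in these intervals, so the difference between the lines was not tested against it.

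**Figure D2:**
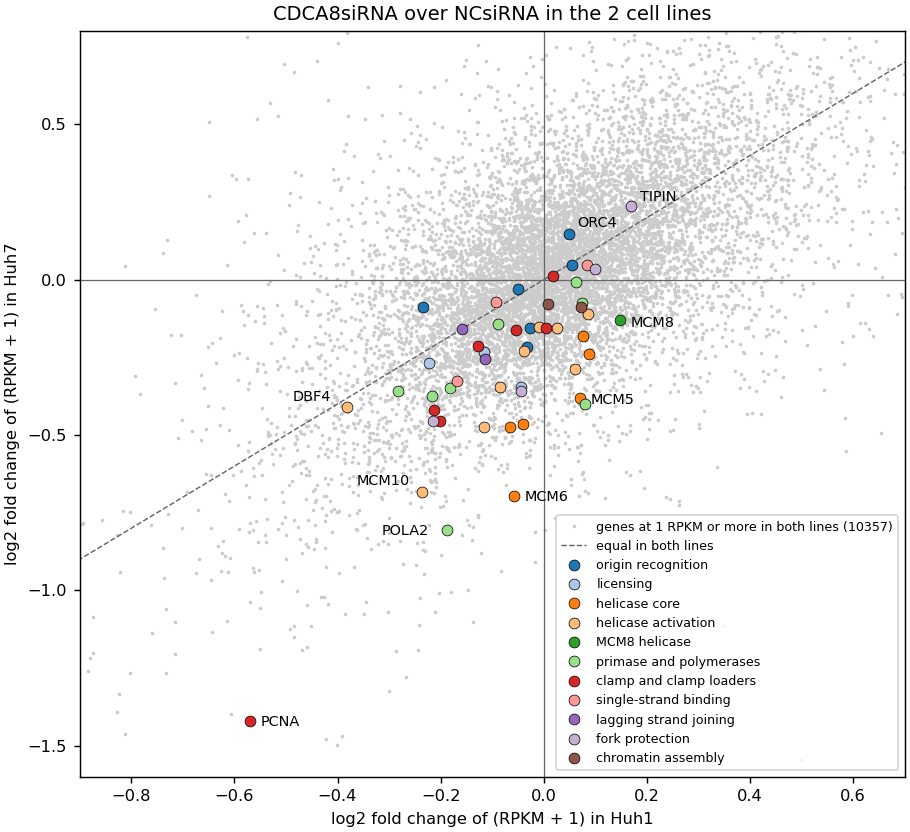
The log2 fold change of (RPKM + 1) with CDCA8siRNA in Huh7 (vertical) against that in Huh1 (horizontal), with members coloured by role, the 10357 genes that passed in both lines in grey and a dashed line where both lines are equal. Grey points beyond the axes are not drawn. Most members lie below the dashed line and below 0 on the vertical axis, with PCNA farthest down at -1.42.

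Taking the lines as the repeats, limma was fitted to all 4 libraries with the cell line as covariate, which leaves 1 residual degree of freedom. With an adjusted p under 0.05, 3 of 51 members (5.88%) fell with CDCA8siRNA, beside 4.21% of 10357 genes, and 0 rose, beside 6.03%. The share that fell was near that of all genes and is no result about the members. At an unadjusted p under 0.05 there were 16 lower members (31.4%), beside 10.5% of all genes, and 0 higher members, beside 15.5%. PCNA, the clamp that holds polymerases on DNA, fell by 0.99 on the log2 scale (SE 0.161, adjusted p = 0.00785 by limma with Benjamini-Hochberg adjustment). DBF4, the activating subunit of the CDC7 kinase, fell by 0.40 (SE 0.0988, limma adjusted p = 0.0373). MCM10, which helps the loaded helicase to start, fell by 0.46 (SE 0.124, limma adjusted p = 0.0466). All 3 were lower in 2 of 2 lines. The fit takes the lines as repeats and so favours genes with such agreement, which is no added support. POLA2, the B subunit of DNA polymerase alpha, had a larger difference than DBF4 and MCM10 and missed the threshold (-0.50, SE 0.143, limma adjusted p = 0.0591). Over 7 alternative settings the adjusted p ranged from 1.47e-06 to 1.00 for PCNA, which stayed under 0.05 in 5, from 0.00862 to 1.00 for DBF4, under it in 4, and from 0.0054 to 1.00 for MCM10, under it in 3.

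The promoters of these 4 members and of TIPIN, the member with the highest log2 fold change over both lines, are shown with the letters to which the factors E2F and NF-Y are known to bind. Each window runs from 250 bases before to 50 bases after the RefSeq gene start on GRCh38.p14, 5′ to 3′ on the gene's own strand. The letters TTTCCCGC, TTTCGCGC, TTTGCCGC and TTTGGCGC (E2F) and CCAAT (NF-Y) are in capitals, as found on either strand. The windows lie at chr20:5126573-5126872 on the minus strand, chr11:65261712-65262011 on the plus strand, chr10:13161308-13161607 on the plus strand, chr7:87876243-87876542 on the plus strand and chr15:66386668-66386967 on the minus strand.
PCNA: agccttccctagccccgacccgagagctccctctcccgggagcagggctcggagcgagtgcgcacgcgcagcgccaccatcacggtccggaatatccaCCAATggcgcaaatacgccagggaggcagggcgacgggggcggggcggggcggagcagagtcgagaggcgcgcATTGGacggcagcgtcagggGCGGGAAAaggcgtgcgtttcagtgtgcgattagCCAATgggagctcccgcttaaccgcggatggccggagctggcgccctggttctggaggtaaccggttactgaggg
POLA2: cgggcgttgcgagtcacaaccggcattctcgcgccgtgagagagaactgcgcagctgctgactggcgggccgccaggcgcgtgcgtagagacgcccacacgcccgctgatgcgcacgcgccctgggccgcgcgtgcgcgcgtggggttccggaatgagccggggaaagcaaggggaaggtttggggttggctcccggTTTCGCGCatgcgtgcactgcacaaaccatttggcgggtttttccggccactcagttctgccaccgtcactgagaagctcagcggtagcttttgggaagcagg
MCM10: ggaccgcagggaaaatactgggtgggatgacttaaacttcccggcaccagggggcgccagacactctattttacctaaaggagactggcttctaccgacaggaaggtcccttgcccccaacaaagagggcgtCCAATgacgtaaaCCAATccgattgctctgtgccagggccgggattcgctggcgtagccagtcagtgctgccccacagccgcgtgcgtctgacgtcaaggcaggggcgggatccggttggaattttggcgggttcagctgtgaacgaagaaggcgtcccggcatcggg
DBF4: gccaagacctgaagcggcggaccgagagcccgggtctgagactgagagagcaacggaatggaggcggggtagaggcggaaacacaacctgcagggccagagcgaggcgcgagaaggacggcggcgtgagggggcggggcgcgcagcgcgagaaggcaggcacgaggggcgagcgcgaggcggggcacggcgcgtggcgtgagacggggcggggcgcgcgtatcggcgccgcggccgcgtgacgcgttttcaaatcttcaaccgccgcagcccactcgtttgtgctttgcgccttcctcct
TIPIN: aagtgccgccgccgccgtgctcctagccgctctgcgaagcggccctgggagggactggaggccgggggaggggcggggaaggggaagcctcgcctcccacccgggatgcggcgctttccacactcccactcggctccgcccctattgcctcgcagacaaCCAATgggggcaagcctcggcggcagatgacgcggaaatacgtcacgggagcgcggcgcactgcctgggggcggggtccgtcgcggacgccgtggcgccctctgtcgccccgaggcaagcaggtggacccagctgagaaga

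In the PCNA window the E2F letters, read as GCGGGAAA, began at -59 from the gene start, with the CCAAT letters at -152 and -25 and their complement at -79. POLA2 held TTTCGCGC at -53 and no CCAAT. MCM10 held CCAAT at -118 and -105, TIPIN held it at -91, and DBF4 held neither set. None of these matches overlapped another. RefSeq windows were found for 44 of the 51 members. The E2F letters were in 20 of the 44 (45.5%), beside 3.31% of all 35116 promoter windows and 5.78% of the 7731 windows of genes tested in both lines. The 20 included all 4 helicase core members with a window (MCM2, MCM3, MCM6 and MCM7), with 2 to 4 matches each. Each strand was counted separately, so overlapping letters on the 2 strands can count as more than 1 match. CCAAT was in 25 (56.8%), beside 34.6% of all windows and 37.5% of those of tested genes. The letters TTTGAA and TTCGAA of the cell cycle homology region, a G2/M gene element that is not in capitals above, were in 2 (4.55%, MCM6 and DBF4), beside 16.4% and 11%. The median log2 fold change of members with the E2F letters was -0.27 in Huh7 and -0.062 in Huh1, and that of members without them -0.16 and -0.041. For CCAAT the order was the other way, at -0.18 and -0.038 with the letters and -0.26 and -0.053 without them. The 2 members with the cell cycle homology region letters had medians of -0.55 and -0.22, and the other 42 of -0.20 and -0.045. Whether any of these letters bear on the fold changes was not tested. A match is a description of the letters, and no factor's binding was measured.

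Among the 6 subunits of the origin recognition complex, differences were small in both lines. In Huh7, 4 were lower and 2 higher, with log2 fold changes from -0.22 (ORC2) to 0.15 (ORC4), and in Huh1 from -0.23 (ORC3) to 0.055 (ORC6). ORC3, a core subunit, stood at 19.5 RPKM in Huh1 with NCsiRNA and 16.4 with CDCA8siRNA, and at 22.3 and 20.9 in Huh7. Its drop went beyond the counting interval in Huh1 (-0.39 to -0.080) and not in Huh7 (-0.24 to 0.059). ORC5 stood at 21.1 and 20.3 RPKM in Huh1 and 18.8 and 18.4 in Huh7, within the counting interval in both. ORC4 was the single subunit that was higher beyond the interval in a line, from 24.0 to 26.6 RPKM in Huh7.

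The 3 licensing members were lower in both lines, all 3 beyond the counting interval in Huh7 and only 1, GMNN, in Huh1. GMNN encodes geminin, the inhibitor that keeps CDT1 from loading helicases again after S phase has begun. It stood at 60.4 and 51.6 RPKM in Huh1 and at 76.2 and 63.2 in Huh7, with log2 fold changes of -0.22 (counting interval -0.35 to -0.094) and -0.27 (-0.39 to -0.15). CDT1, its target, stood at 18.8 and 17.3 RPKM in Huh1 and 22.1 and 18.7 in Huh7. Its log2 fold changes were -0.11 (counting interval -0.25 to 0.021) and -0.23 (-0.37 to -0.097). CDC6, the loader that works with CDT1, differed little in Huh1 (log2 fold change -0.045) and was lower in Huh7 (-0.35), a difference between the lines of -0.30 (counting interval -0.47 to -0.14). The inhibitor and its target were both lower beyond the counting interval in Huh7, while in Huh1 the difference of CDT1 was within it. None of the 3 passed limma's threshold (adjusted p from 0.106 to 0.315).

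In the helicase core, the log2 fold change of every subunit was lower in Huh7 than in Huh1. With 1 library per line and siRNA, this was not tested against the spread between cultures. MCM2 to MCM7 form the ring that unwinds DNA, and all 6 were lower in Huh7, each beyond its counting interval, with log2 fold changes from -0.18 (MCM3) to -0.70 (MCM6) and a median of -0.42. In Huh1 the same 6 lay between -0.065 and 0.088, with a median of 0.015, 3 lower and 3 higher.

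MCM6 stood at 35.4 RPKM in Huh1 with NCsiRNA and 34.0 with CDCA8siRNA, and at 61.7 and 37.7 in Huh7. MCM2 stood at 46.3 and 44.2 RPKM in Huh1 and at 74.8 and 53.6 in Huh7. MCM4 stood at 58.5 and 56.9 RPKM in Huh1 and at 71.7 and 51.7 in Huh7. In these 3, the Huh7 control was the highest of the 4 libraries and the other Huh7 library was 28.0% to 38.9% below it, while the Huh1 pair differed by under the counting interval. MCM5 stood at 41.7 and 43.9 RPKM in Huh1 and at 31.8 and 24.1 in Huh7. MCM3 stood at 123 and 130 RPKM in Huh1 and at 137 and 121 in Huh7. MCM7 stood at 155 and 164 RPKM in Huh1 and at 172 and 146 in Huh7. These 3 were higher with CDCA8siRNA in Huh1, beyond the counting interval for MCM3 and MCM7, and lower in Huh7.

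For all 6 the log2 fold change was lower in Huh7 than in Huh1 beyond the counting interval of the difference, beside 18.2% of all genes. The difference ran from -0.26 (-0.33 to -0.18) for MCM3 to -0.64 (-0.76 to -0.51) for MCM6. With the lines as repeats, no core subunit passed limma's threshold (adjusted p from 0.119 for MCM6 to 0.765 for MCM3). MCM8, a related helicase that is not part of the ring and acts in recombination, showed the same contrast, at 13.1 and 14.6 RPKM in Huh1 and 26.2 and 23.9 in Huh7, with log2 fold changes of 0.15 and -0.13.

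**Figure D3:**
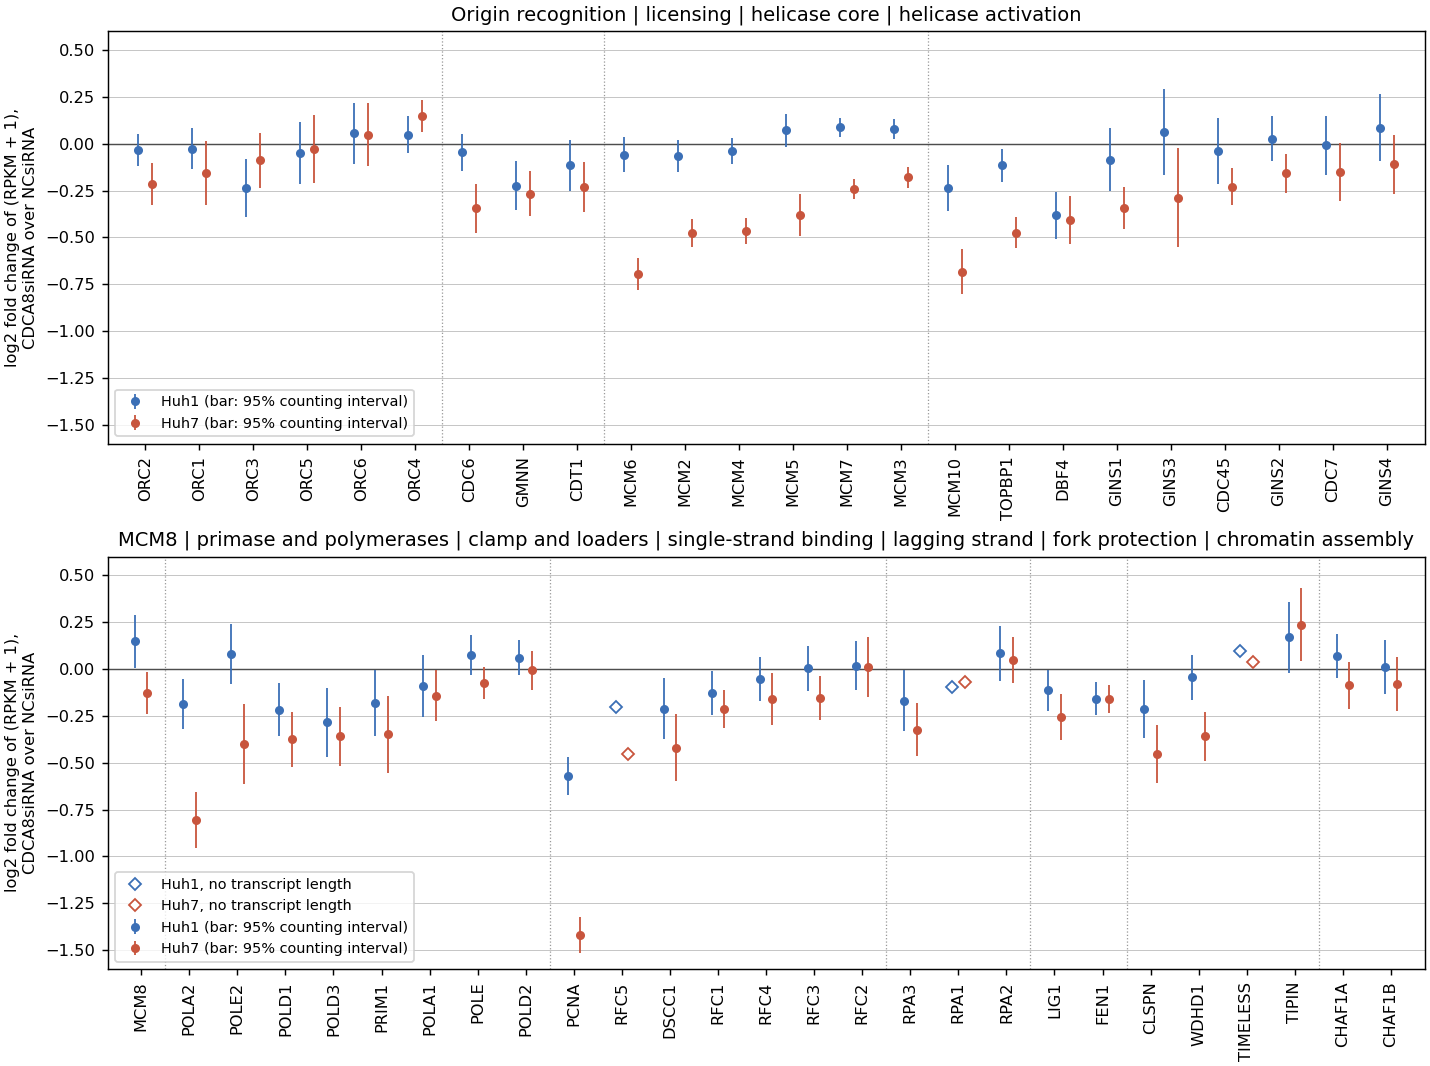
The log2 fold change of (RPKM + 1) of CDCA8siRNA over NCsiRNA for each member in Huh1 (blue) and Huh7 (red), in role groups, with bars for the 95% counting interval and open diamonds for the 3 members without a transcript length. In the helicase core all 6 red points lie below 0 and below their blue points.

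The 9 members that activate the helicase were all lower in Huh7, with log2 fold changes from -0.11 (GINS4) to -0.68 (MCM10), and 7 of them beyond the counting interval. In Huh1, 6 were lower and 3 higher. MCM10 stood at 16.6 and 13.9 RPKM in Huh1 and at 23.5 and 14.2 in Huh7, so that the CDCA8siRNA libraries of both lines ended at nearly the same level. DBF4 changed alike in the lines, by -0.38 in Huh1 and -0.41 in Huh7, whereas its kinase CDC7 differed by -0.0090 and -0.15, each within its counting interval. TOPBP1, which brings CDC45 to origins, was lower by -0.12 in Huh1 and -0.47 in Huh7. The 4 GINS subunits were lower in Huh7 (-0.11 to -0.34), 3 of them beyond the counting interval, while 3 of the 4 were higher in Huh1, none beyond it. GINS4 stood at 7.37 and 7.88 RPKM in Huh1 and at 12.3 and 11.3 in Huh7. CDC45 differed by -0.038 in Huh1 and by -0.23 in Huh7 on the log2 scale.

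Of the 8 primase and polymerase members, all were lower in Huh7 (median log2 fold change -0.35) and 5 in Huh1 (median -0.13). POLD2 was the exception in size at -0.0075 in Huh7, which turned to 0.030 under quantile normalization and 0.0064 under upper quartile scaling. POLA2 stood at 17.0 RPKM in Huh1 with NCsiRNA and 14.8 with CDCA8siRNA, and at 18.6 and 10.2 in Huh7. The Huh7 knockdown library was thus the lowest of the 4, 45.1% below its control. The polymerase alpha catalytic subunit POLA1 and the small primase subunit PRIM1, which work in the same complex, differed less in Huh7 (-0.14 and -0.35). POLE, the catalytic subunit of polymerase epsilon, stood at 10.9 and 11.5 RPKM in Huh1 and at 22.0 and 20.8 in Huh7, within the counting interval in each line. Its partner POLE2 was higher by 0.081 in Huh1 and lower by -0.40 in Huh7, the latter beyond the counting interval. The polymerase delta subunits POLD1 and POLD3 were lower beyond the interval in both lines.

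PCNA was the member with the largest difference in each line. It stood at 109 RPKM in Huh1 with NCsiRNA and 72.8 with CDCA8siRNA, and at 194 and 71.9 in Huh7. Both knockdown libraries thus ended within 1 RPKM of each other, although the Huh7 control was 1.79 times the Huh1 control. The log2 fold change was -0.57 in Huh1 (counting interval -0.67 to -0.47) and -1.42 in Huh7 (-1.51 to -1.32), a difference of -0.85 (-0.99 to -0.71). The 5 subunits of RFC, the complex that loads the clamp, had log2 fold changes from -0.20 (RFC5) to 0.018 (RFC2) in Huh1 and from -0.46 to 0.012 in Huh7. RFC2 stood at 41.1 and 41.6 RPKM in Huh1 and at 29.6 and 29.8 in Huh7. DSCC1, of the alternative loader that acts in cohesion, was lower beyond the counting interval in both lines (-0.21 and -0.42). Over the other 50 members, the median was -0.045 in Huh1 and -0.22 in Huh7.

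Among the members that work on single strands and join fragments, RPA3 and RPA2 differed in opposite directions. RPA3, the smallest subunit of the single-strand binding protein RPA, stood at 21.5 and 19.0 RPKM in Huh1 and at 34.2 and 27.1 in Huh7, lower beyond the counting interval in both. RPA2 stood at 30.0 and 31.9 RPKM in Huh1 and at 45.5 and 47.1 in Huh7, within the interval in both, and RPA1 had log2 fold changes of -0.093 and -0.070. FEN1, the nuclease that trims flaps on the lagging strand, stood at 70.8 and 63.3 RPKM in Huh1 and at 107 and 95.3 in Huh7, with a log2 fold change of -0.16 in each line. LIG1, the ligase that seals the fragments, stood at 29.3 and 27.0 RPKM in Huh1 and at 26.6 and 22.1 in Huh7. Both of these genes were lower beyond the counting interval in each line.

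The 4 fork protection members split. CLSPN encodes claspin, which passes the checkpoint signal from ATR to CHK1, and it stood at 10.9 and 9.30 RPKM in Huh1 and at 12.8 and 9.07 in Huh7, lower beyond the counting interval in both lines. WDHD1, which links polymerase alpha to the helicase, was lower in Huh7 (-0.36). TIMELESS and TIPIN form 1 complex that travels with the fork, and both were higher in both lines. TIMELESS stood at 30.4 and 32.6 RPKM in Huh1 and at 26.8 and 27.5 in Huh7. Its log2 fold change in Huh7 was 0.036, near the median of 0.033 for all genes, and it has no counting interval. TIPIN had log2 fold changes of 0.17 (counting interval -0.021 to 0.36) and 0.24 (0.042 to 0.43). The chromatin assembly factor subunits, which place histones on new DNA, differed within the counting interval in each line. CHAF1A stood at 23.5 and 24.8 RPKM in Huh1 and at 24.3 and 22.8 in Huh7. CHAF1B stood at 10.9 and 10.98 RPKM in Huh1 and at 12.3 and 11.6 in Huh7.

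The lines also differed in the levels of many members. By limma with the siRNA as covariate, where the siRNAs serve as the repeats, 20 of 51 members (39.2%) were higher in Huh7 than in Huh1, beside 42.5% of 12148 genes, and 11 (21.6%) were lower, beside 28.7%. Both shares were near those of all genes and are no result about the members as a whole. CDC45, the helicase cofactor, differed most, at 18.0 and 17.5 RPKM in Huh1 against 72.9 and 62.1 in Huh7, which was 4.05 times as much with NCsiRNA and 3.55 times with CDCA8siRNA. GINS1 was 3.04 and 2.53 times as high in Huh7. ORC1, the largest ORC subunit, was 2.32 and 2.56 times as high in Huh1, at 29.3 and 28.7 RPKM against 12.6 and 11.2. Within the GINS complex GINS1, GINS2 and GINS4 were higher in Huh7 and GINS3 was lower, and within ORC 2 subunits were higher and 2 lower.

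The ratio between the lines moved with the knockdown for some of the genes. PCNA was 1.79 times as high in Huh7 as in Huh1 with NCsiRNA and 0.988 times with CDCA8siRNA, MCM6 1.74 and 1.11 times, and MCM10 1.41 and 1.02 times. For MCM4, MCM3, MCM7 and POLA2, among others, the order turned over, from 1.09 to 1.23 times with NCsiRNA to 0.687 to 0.93 times with CDCA8siRNA.

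**Figure D4:**
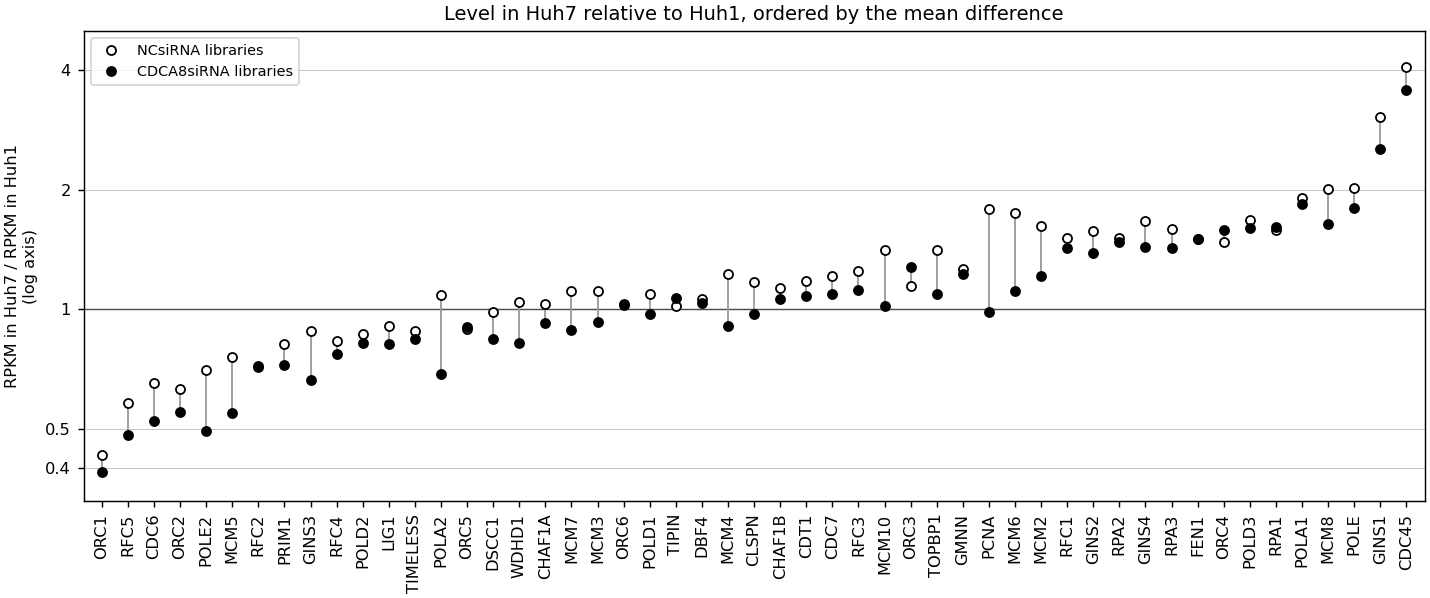
RPKM in Huh7 divided by RPKM in Huh1 on a log axis for each member, with open points for the NCsiRNA libraries and filled points for the CDCA8siRNA libraries, ordered by the mean difference. ORC1 is lowest and CDC45 highest, and the filled point of PCNA lies at 0.988 under an open point at 1.79.

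Other replication genes outside the list had smaller median differences. Of 28 such genes, 2 fell by limma (POLE3 and ASF1B) and 1 rose (POLD4), with medians of -0.031 in Huh1 and -0.049 in Huh7. Beside the counts of this and each further list stand 4.21% of all 10357 genes that fell and 6.03% that rose. ASF1B, a histone chaperone, stood at 16.9 and 13.4 RPKM in Huh1 and at 26.8 and 17.3 in Huh7 (log2 fold change over both lines -0.46, SE 0.110). Of 8 nucleotide supply genes, 2 fell (RRM2 and TYMS) and 0 rose, with medians of -0.093 and -0.36. RRM2, the limiting subunit of ribonucleotide reductase, stood at 45.9 and 36.4 RPKM in Huh1 and at 75.1 and 48.8 in Huh7.

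Of 16 regulators of the G1/S transition, 2 fell (CCNE1 and SKP2) and 1 rose, CDK6, which stood at 11.6 and 18.9 RPKM in Huh1 and at 8.85 and 16.9 in Huh7. The median of this list was -0.034 in Huh1 and -0.22 in Huh7. Of 12 G2/M genes, 2 fell (PLK1 and NUSAP1) and 0 rose, with medians of -0.16 in Huh1 and -0.26 in Huh7. NUSAP1, a spindle protein, stood at 37.7 and 17.4 RPKM in Huh1 and at 95.3 and 32.8 in Huh7. Of 10 hepatocyte markers, 7 fell, beside 4.21% of all genes, and 0 rose, beside 6.03%, with medians of -0.39 and -0.48. APOB, the main apolipoprotein of secreted lipoproteins, stood at 217 and 144 RPKM in Huh1 and at 130 and 74.2 in Huh7. Of the 11 markers of other cell types 2 were tested, and LYZ rose, standing at 0.855 and 1.67 RPKM in Huh1 and at 11.1 and 23.4 in Huh7. The medians of all the lists given here but that of the other cell types were below 0 in both lines. Whether the hepatocyte and G2/M differences have a part in those of the replication genes was not tested.

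Reads of near-identical or overlapping genes bear on some members. In GENCODE release 29, 18 of the 51 members had an exon that overlaps a gene on the other strand, MCM2, MCM7, DBF4, FEN1 and LIG1 among them, and the library kit named in the labels does not mark strand. PCNA has 3 pseudogenes named after it there, and 7 members have at least 1. How reads of these copies were assigned is not given in the sources used here.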

How the data were processed

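Illumina TruSeq RNA libraries of 4 cultures were analysed, 1 per cell line and siRNA. The submitters' processing notes name CASAVA 1.8.2, TopHat2 2.0.9 and the build hg19, and the counting program is not given in the sources used here. The authors deposited 1 value per RefSeq transcript, taken here as RPKM, which is made from reads per transcript length and mapped reads. No unit is stated with the values. It was inferred from them, since low values times length gather at 1 step in each library. That step, taken as 1 read, gives the mapped reads. Lengths came from GENCODE release 29 by RefSeq identifier. Only 2 of 48 members gave whole reads in all libraries (tolerance 0.05), so read numbers and counting intervals are approximate.

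Fold changes are differences of log2(RPKM + 1), which understate those of low genes, over genes with at least 1 RPKM in a library of the line. limma 3.58.1 (lmFit, eBayes with trend, R 4.3.3) was fitted to all genes with at least 1 RPKM in both lines, or in any library when lines were compared, with Benjamini-Hochberg adjustment. Its p-values measure how alike the lines, or the siRNAs, behaved and not the spread between cultures. The steps were tested on simulated data with planted changes of at least 2-fold. The planted change was the same in both lines, with a small random change added for each line. The outcome is not given here. Smaller changes, or changes that differ more between the lines, like those of most members, were not covered. Alternatives were a pseudocount of 0.1, no filter, a minimum of 5 RPKM, quantile normalization, upper quartile scaling, a plain ratio, and limma without trend or covariate.

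The members and all gene lists were chosen with earlier results of these data known. All 4 values are given for 25 members, which are PCNA, MCM2 to MCM7, any member past 2-fold, and the largest and smallest difference over both lines in each role group. From each other list the gene with the largest difference is given. CDC45, ORC1, ORC4 and TIPIN were added after their values were seen.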

Additional observations from a re-analysis of the deposited data

Results flagged for a closer look

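For 8 of the members with all values given, the Huh1 and Huh7 differences lay on opposite sides of 0, higher with CDCA8siRNA in Huh1 and lower in Huh7, and the difference was not tested because each line has 1 library per siRNA. The log2 fold change in Huh7 minus that in Huh1 was -0.26 for MCM3, -0.45 for MCM5, -0.33 for MCM7, -0.28 for MCM8 and -0.15 for POLE, each beyond the counting interval of the difference. It was -0.20 for GINS4, -0.16 for CHAF1A and -0.088 for CHAF1B, each within that interval. CHAF1B was lower in Huh1 too under quantile normalization (-0.026) and upper quartile scaling (-0.0051), so its directions were then the same. Over all 51 members, 13 (25.5%) showed these opposite directions as deposited, beside 15.8% of all 10357 genes. Under either scaling 10 members (19.6%) did, beside 14.5% of all genes with quantile normalization and 13.2% with upper quartile scaling.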

How the results depend on the processing

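The number of members that fell by limma was 3 as reported, 0 with no filter on low values or without the covariate, 1 without the trend and 9 with quantile normalization. Members lower in Huh7 than in Huh1 numbered 11, and 4 with no filter and 7 without the covariate. Those higher numbered 20, and 12 with no filter. The shares of all genes called under these alternatives are not given here, so these counts are no result about the members. Without the covariate, the difference between the lines, or between the siRNAs, becomes part of the fit's residual spread. The cause of the changes in these counts was not tested. The limma log2 fold change of MCM8 turned to -0.026 with quantile normalization and that of POLE to 0.0011 with a pseudocount of 0.1 RPKM. Of 475 values of named members under an alternative, 463 kept their direction or stayed within their counting interval, with the same side of the threshold, 6 lost and 4 gained the threshold, and 2 reversed. Quantile normalization and upper quartile scaling of the counts of lower members were added after seeing the data and gave 35 and 34 lower members in Huh1, where 51.1% and 48.03% of all genes were then lower in place of 44.9%. In Huh7 both gave 44, with 49.6% and 43.6% of all genes lower in place of 45.5%. The scalings moved the median of all genes by under 0.05 on the log2 scale. The reported limma fit pairs the siRNAs within each cell line through the covariate. With 1 library per condition, leaving out a library would leave no pair for its line, so this was not run. Depth limits the intervals most for GINS3, with 149 reads in the Huh7 knockdown library.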
